A study of Mus musculus with 6 samples.

Results

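The 8 hormone genes of the pancreatic islet were followed through a sort of newborn mouse islet cells by their history of *Wnt4* expression. They are *Ins1* and *Ins2* (insulin), *Iapp* (islet amyloid polypeptide), *Gcg* (glucagon), *Sst* (somatostatin), *Ppy* (pancreatic polypeptide), *Pyy* (peptide YY) and *Ghrl* (ghrelin). All 8 were found among the 45616 genes and transcripts measured, through 10 probes of the array, 3 for *Ghrl* and 1 for each of the others. Islets of Wnt4eGFPCre;mTmG pups at postnatal day 1 were dissociated. Every cell of these mice starts with membrane tdTomato from the mTmG reporter, and Cre made from the *Wnt4* locus switches it for good to membrane GFP (mGFP). The design text and the methods describe both fractions as sorted from islets of this one cross, with no treatment. The genotype field of the labels separates them by *Wnt4* status, and a legend of the study lists one of the groups as lacking the Cre transgene, so it is not settled that both carried the same alleles. The mGFP-positive cells are called Wnt4hi and the mGFP-negative cells Wnt4low. Since the switch is permanent, mGFP marks cells that have expressed *Wnt4* by then, and not its level on the day of the sort, and nothing in the sort required a cell to be endocrine. Each of the 6 arrays (Wnt4hi replicates 2, 3 and 4 and Wnt4low replicates 1, 3 and 4) received amplified, Cy5-labelled cDNA from 1 sorted sample, in which the islets of 3 or 4 pups had been pooled.

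In the islet, beta cells make insulin and islet amyloid polypeptide, alpha cells glucagon, delta cells somatostatin, PP cells pancreatic polypeptide, and epsilon cells ghrelin. Epsilon cells are found mainly before and around birth, and peptide YY is shared by several endocrine types in the fetal and newborn pancreas. Each hormone is made as a longer precursor, cut by prohormone convertases and trimmed before it is stored in secretory granules. Insulin lowers blood glucose, glucagon raises it, somatostatin restrains the secretion of both, and ghrelin acts on appetite and growth hormone.

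*Ghrl* showed the widest difference of the 8 hormone genes and *Sst* the only negative one. Transcripts of *Ghrl* were 4.29-fold higher in Wnt4hi than in Wnt4low cells and those of *Sst* were 1.47-fold lower. *Ppy* (2.33-fold), *Iapp* (1.95-fold), *Ins2* (1.47-fold) and *Pyy* (1.35-fold) were higher on every Wnt4hi array than on any Wnt4low array. *Gcg* and *Ins1* overlapped between the fractions. On another scale, set against pan-endocrine genes as described further on, *Ins1*, *Ins2*, *Pyy* and *Iapp* turned to lower in Wnt4hi. *Ppy* and *Gcg* were near 0 there, and the *Gcg* value depended on Wnt4low replicate 1. In bulk RNA of sorted cells, fewer cells of a type and less RNA per cell cannot be told apart.

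Values are normalized log2 intensities, each array having the same distribution after quantile normalization, and differences are Wnt4hi minus Wnt4low on that scale. The errors of group means are SD over 3 arrays, and the SE and adjusted p of a difference, and the unadjusted p behind a count, come from limma's moderated test, adjusted by Benjamini-Hochberg over all 45616 features. After adjustment 1 of the 8 hormone genes, *Ghrl*, had a p under 0.05, while 0.438% of all features did and 0.0351% did so toward Wnt4hi and 0.403% toward Wnt4low. Without adjustment 5 of 8 passed, 4 toward Wnt4hi (*Ghrl*, *Ppy*, *Iapp* and *Ins2*) and 1 toward Wnt4low (*Sst*), against 10.5% of all features, 5.02% toward Wnt4hi and 5.53% toward Wnt4low. The fractions did not overlap for 6 of 8, 5 of them higher in Wnt4hi, against 16% of all features. As shares of all features, 9.56% were higher in Wnt4hi without overlap and 6.44% lower. Of the hormone genes 7 of 8 had a difference above 0, as did 63.5% of all features, and their median difference was 0.76 beside 0.07 over all features. Probes for the same hormone genes were bright throughout: all 10 were well above background on all 6 arrays, and 0 were saturated. Since an array probe has its own brightness, levels are compared between samples for one probe and not between genes.

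**Figure D1:**
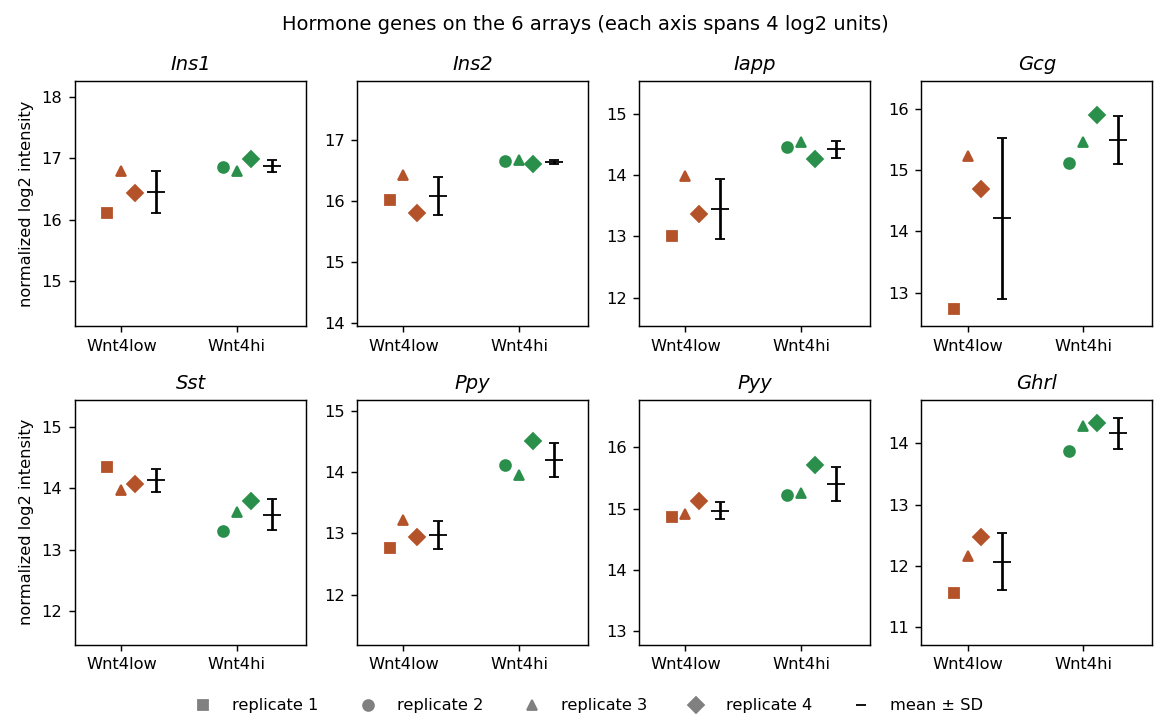
Normalized log2 intensity of the 8 hormone genes on each array, Wnt4low in brown and Wnt4hi in green, with the marker shape giving the replicate and the black bar the mean ± SD of 3 arrays. Each vertical axis spans 4 log2 units. The fractions are apart for *Ghrl*, *Ppy*, *Iapp*, *Ins2*, *Pyy* and *Sst*, with only *Sst* lower in Wnt4hi, and share part of their range for *Ins1* and *Gcg*.

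The sort and the makeup of the fractions bear on every value below. *Wnt4* itself read 11.20, 10.53 and 10.77 on the Wnt4hi arrays and 9.85, 10.11 and 9.31 on the Wnt4low arrays. It was 1.08 higher in Wnt4hi (SE 0.27, adjusted p = 0.212), without overlap. Of 12 endothelial markers 12 were lower in Wnt4hi, with a median difference of -3.79, and 9 passed after adjustment, beside 0.403% of all features (*Pecam1*, *Cdh5*, *Kdr*, *Plvap*, *Esam*, *Tek*, *Robo4*, *Emcn* and *Esm1*). Their mean log2 value ran from 8.17 to 8.70 in Wnt4hi and from 11.64 to 12.48 in Wnt4low, and *Tek* and *Tie1* were not well above background on any Wnt4hi array. Of 8 mesenchymal markers 8 were lower (median -1.18, 10.74 to 12.25 in Wnt4hi and 12.51 to 12.70 in Wnt4low), and 6 of 7 leukocyte markers were lower (median -0.57, 9.38 to 9.81 and 10.17 to 10.32). Acinar markers overlapped, with means of 8.94 to 9.25 in Wnt4hi and 9.03 to 10.33 in Wnt4low, 1 of 8, *Pnlip*, being not well above background in either fraction. Ductal markers overlapped as well, at 9.60 to 9.88 and 9.73 to 10.48. Beta-cell and alpha-cell markers went the other way, with 11 of 12 beta-cell markers (median 1.58) and 10 of 10 alpha-cell markers (median 1.52) higher in Wnt4hi. The beta-cell means were 12.52 to 12.72 in Wnt4hi and 10.49 to 12.05 in Wnt4low, and the alpha-cell means 11.33 to 12.49 and 9.03 to 11.00. Delta-cell markers were split (2 of 6 higher and 4 lower, median -0.38), and 5 epsilon-cell associated genes had a median of 0.08. The part of these differences in the hormone values was not tested by a model, and the hormone genes are set against endocrine genes further on. Array quality was similar in both fractions, with 70.5% to 79.5% of 59305 spots well above background in Wnt4hi and 73.1% to 76.9% in Wnt4low.

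**Figure D2:**
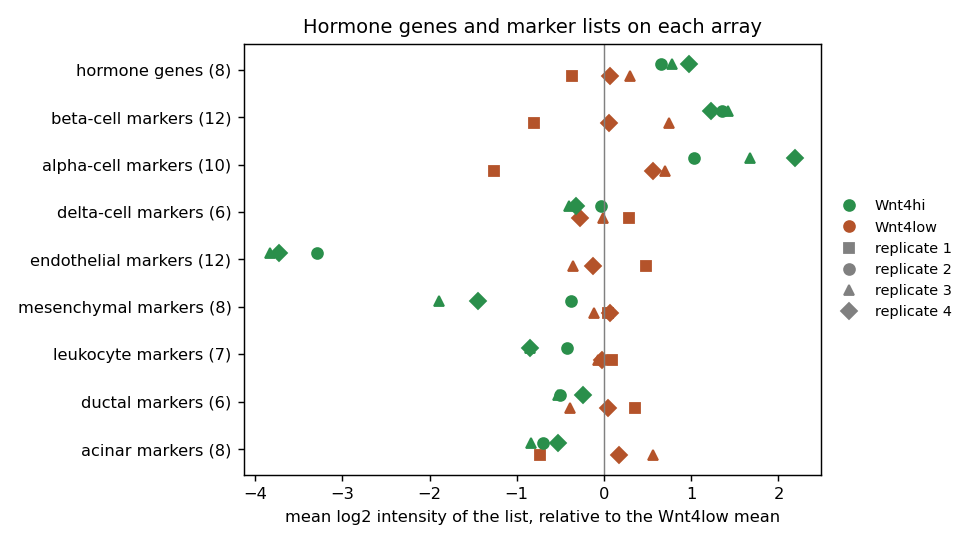
Mean log2 intensity of the hormone genes and of marker lists on each array, as the difference from the Wnt4low mean of the list (horizontal axis, log2 units). Green points are Wnt4hi and brown points Wnt4low arrays, and the number of genes is in parentheses. Hormone, beta-cell and alpha-cell lists are higher and endothelial, mesenchymal and leukocyte markers lower in Wnt4hi without overlap. Wnt4low replicate 1 is lowest in the hormone, beta-cell and alpha-cell lists and highest in the delta-cell list.

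The short regions at the start of 4 of these genes are shown so that the genes at the ends of the range can be read side by side. They are *Ghrl*, with the widest difference, *Sst*, the only one lower in Wnt4hi, and *Gcg* and *Ins1*, whose fractions overlapped. Each run holds 250 bases before and 50 bases after the first transcribed base in RefSeq on GRCm38.p6, 5′ to 3′ on the strand of the gene. Windows were given for 7 of the 8 genes, and not for *Ins2*. Capitals mark TATAAA on the sense strand, TGACGTCA (the full cAMP response element, the same on both strands), CANNTG (the E-box, the same on both strands) and TAAT on either strand. No marked motif overlaps another in these 4.
*Ghrl* chr6:113719862-113720161 (-): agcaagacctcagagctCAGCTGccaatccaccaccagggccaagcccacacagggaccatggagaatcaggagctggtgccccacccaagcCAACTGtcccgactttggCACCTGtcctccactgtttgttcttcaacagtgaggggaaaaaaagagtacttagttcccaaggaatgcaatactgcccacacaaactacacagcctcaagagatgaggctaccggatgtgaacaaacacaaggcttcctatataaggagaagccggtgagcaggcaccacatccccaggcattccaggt
*Sst* chr16:23890795-23891094 (-): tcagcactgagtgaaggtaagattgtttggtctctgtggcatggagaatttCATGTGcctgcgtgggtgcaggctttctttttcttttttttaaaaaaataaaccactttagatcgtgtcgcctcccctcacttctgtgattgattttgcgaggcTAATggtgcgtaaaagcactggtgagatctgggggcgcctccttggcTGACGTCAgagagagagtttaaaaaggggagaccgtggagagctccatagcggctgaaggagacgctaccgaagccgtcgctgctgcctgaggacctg
*Gcg* chr2:62483604-62483903 (-): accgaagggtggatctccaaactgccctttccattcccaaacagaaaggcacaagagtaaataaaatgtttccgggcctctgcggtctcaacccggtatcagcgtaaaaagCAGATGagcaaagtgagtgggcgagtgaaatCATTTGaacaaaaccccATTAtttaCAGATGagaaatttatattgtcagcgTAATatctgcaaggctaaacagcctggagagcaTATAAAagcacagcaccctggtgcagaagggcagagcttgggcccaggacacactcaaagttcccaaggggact
*Ins1* chr19:52264047-52264346 (+): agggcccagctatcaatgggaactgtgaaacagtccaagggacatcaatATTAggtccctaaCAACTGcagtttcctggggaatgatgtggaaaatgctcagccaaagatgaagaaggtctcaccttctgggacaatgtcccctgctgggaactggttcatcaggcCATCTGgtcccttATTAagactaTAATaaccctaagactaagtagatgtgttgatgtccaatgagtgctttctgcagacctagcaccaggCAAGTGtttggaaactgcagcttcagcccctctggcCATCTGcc
With the first transcribed base as 0, the *Sst* window held TGACGTCA from -48, letters found in 1.79% of the 32851 windows of the genome of this length. This is the sequence that the factor CREB is known to bind. TATAAA stood at -24 in the *Gcg* window and, in a window not printed, at -31 for *Ppy*, and in 8.32% of all windows. The *Ins1* window held 4 E-boxes and 3 copies of TAAT, the *Gcg* window 3 and 2, and the *Sst* window 1 and 1. The *Ghrl* window, the most upstream of 4 given for that gene, held 3 and 0. Of the *Ins1* E-boxes, those at 6 and 42 lay after the first transcribed base. E-boxes were found in 72.3% and TAAT in 58% of all windows. These are matches of letters and say nothing of which factors were bound in these cells.

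*Ghrl* encodes the precursor of ghrelin, the product of epsilon cells, and it was the hormone gene that differed most. It read 13.87, 14.29 and 14.34 on Wnt4hi replicates 2, 3 and 4, and 11.56, 12.17 and 12.48 on Wnt4low replicates 1, 3 and 4. The lowest Wnt4hi array lay above the highest Wnt4low array by more than the whole range of the Wnt4hi arrays. On the scanner's own scale, before any normalization, intensities ran from 14317 to 22186.5 in Wnt4hi and from 3568 to 4838 in Wnt4low. The means were 14.17 ± 0.26 and 12.07 ± 0.47 (SD, n = 3 each). The difference was 2.10 (SE 0.27, adjusted p = 0.0498). Its other probes gave 2.33 and 2.38, also without overlap, with adjusted p of 0.0598 and 0.109 in the fit over 56605 probes, in which the first probe had 0.0494 and 0.0371% of probes passed toward Wnt4hi. The size of the difference was therefore close for the 3 probes, but the adjusted call rested on the choice of probe. It was also lost when any 1 array was left out: the difference then ran from 1.85 (without Wnt4low replicate 1) to 2.30 (without Wnt4low replicate 4), with adjusted p from 0.0680 to 0.168. Replicates 3 and 4 occur in both fractions, and a fit that held this number as a fixed block gave an adjusted p of 0.0669.

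Other genes tied to epsilon cells had a median difference of 0.08. Of 5 listed, 4 were above 0, beside 63.5% of all features. After adjustment 0 passed and without it 1 did, beside 0.0351% and 5.02% of all features toward Wnt4hi. *Frzb*, a secreted Wnt antagonist, differed by 0.26 (SE 0.56) and *Asgr1* by 0.08 (SE 0.21). *Mboat4*, the acyltransferase that puts the fatty acid on ghrelin, is added here after its value was seen. It differed by 0.08 (SE 0.14, adjusted p = 0.904) and was well above background on all arrays. The gene with the profile most like that of *Ghrl* over the 6 arrays was *Rbp4*, a retinol carrier (Pearson's r = 0.990, difference 0.53), and *Pamr1* was close to it (r = 0.990, difference 0.69). Such correlations were among the highest among all named genes, over 6 arrays that share a normalization, and are given as a description for each hormone.

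**Figure D3:**
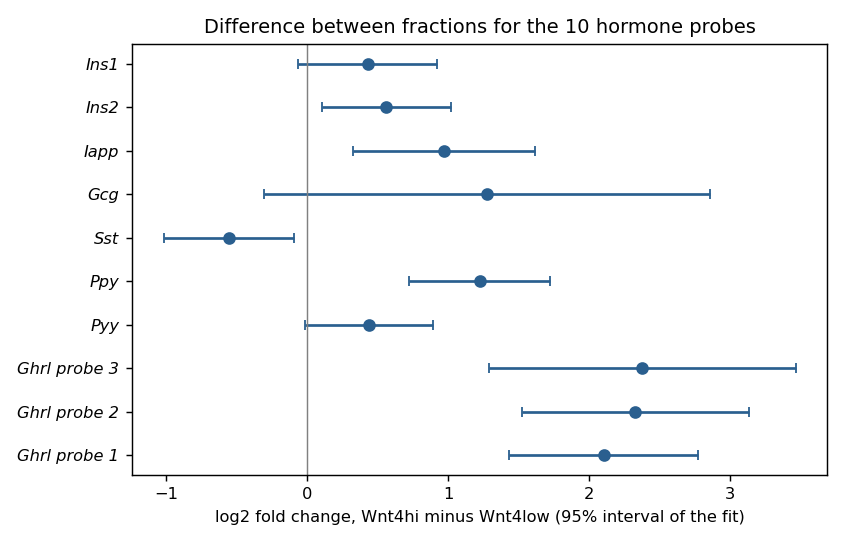
Difference between Wnt4hi and Wnt4low (horizontal axis, log2 units) for the 10 hormone probes, with the 95% interval of the limma fit over all probes as bars (3 arrays per fraction). The 3 *Ghrl* probes, ordered by size, lie at 2.10, 2.33 and 2.38, and the interval is below 0 only for *Sst*.

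*Ppy* and *Pyy* are neighbours on one chromosome and encode related peptides that act on the Y receptors, pancreatic polypeptide from PP cells and peptide YY from several endocrine cells. *Ppy* read 14.12, 13.96 and 14.51 in Wnt4hi and 12.77, 13.21 and 12.94 in Wnt4low. Every Wnt4hi array lay well above every Wnt4low array. The difference was 1.22 (SE 0.20, adjusted p = 0.0844), so it passed without adjustment and not after it. *Pyy* read 15.22, 15.26 and 15.72 in Wnt4hi and 14.86, 14.91 and 15.12 in Wnt4low. The fractions of *Pyy* were also in order but close, and the difference of 0.44 (SE 0.18, adjusted p = 0.486) passed neither threshold, and it was 0.28 without Wnt4hi replicate 4. *Ppy* went with *Map1b* (r = 0.996), *Skap1* (r = 0.995) and *Rufy3* (r = 0.993), and *Pyy* with *Gprin3*, *Gspt2* and *Zfp941* (r = 0.985, 0.984 and 0.984).

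*Ins1* and *Ins2* are the insulin genes of the mouse, which has a pair where most mammals have one. *Ins2* read 16.65, 16.66 and 16.61 in Wnt4hi and 16.01, 16.42 and 15.81 in Wnt4low. It was the most even of the hormone genes in Wnt4hi, with an SD of 0.03 against 0.31 in Wnt4low. The difference of 0.56 (SE 0.19, adjusted p = 0.348) passed without adjustment only. That call was lost without Wnt4low replicate 1 (0.53) or 4 (0.42) and without Wnt4hi replicate 2 (0.56) or 3 (0.55). *Ins1* read 16.85, 16.79 and 16.99 in Wnt4hi and 16.12, 16.79 and 16.44 in Wnt4low. The fractions met at replicate 3, where *Ins1* was the probe of rank 9 from the brightest on both arrays and so received one value from quantile normalization. The difference of 0.43 (SE 0.20, adjusted p = 0.543) passed neither threshold, and it was 0.26 without Wnt4low replicate 1. On the scanner's scale *Ins1* did not overlap, at 116482 to 130438 in Wnt4hi and 73412.5 to 112912 in Wnt4low. The *Ins2* probe held ranks 18, 16 and 21 on the Wnt4hi arrays and 91, 39 and 125 on the Wnt4low arrays, and both insulin probes were among the brightest of every array. The means of the scanner's intensities for *Ins1* were in a ratio of 1.37, beside a fold of 1.35 after normalization. The coding sequences of the insulin genes are close, and how far each probe binds the transcript of the other could not be read from the probe names, so their values are uncertain as separate measurements.

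*Iapp*, whose peptide beta cells release together with insulin, read 14.46, 14.55 and 14.26 in Wnt4hi and 13.01, 13.98 and 13.37 in Wnt4low. The difference of 0.97 (SE 0.26, adjusted p = 0.249) passed without adjustment only, and the fractions did not overlap. It was 0.74 without Wnt4low replicate 1, the lowest of its fraction, and 1.23 without Wnt4low replicate 3, the highest. The profiles most like *Ins2* were those of *Meg3*, a maternally expressed non-coding RNA (r = 0.997), and *Abcc8*, the sulfonylurea receptor of the beta-cell potassium channel (r = 0.991). *Abcc8* differed by 1.92, beside 0.56 for *Ins2*. *Ins1* went with *Sez6l2*, *Gdi2* and *Gipr*, the receptor of an incretin (r = 0.995, 0.995 and 0.994), and *Iapp* with *Nhlh1*, *Ociad2* and *Letmd1* (r = 0.996, 0.995 and 0.994).

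*Gcg* encodes the precursor of glucagon, the alpha-cell hormone. It read 15.12, 15.46 and 15.91 in Wnt4hi and 12.73, 15.23 and 14.69 in Wnt4low. The lowest Wnt4hi array lay below Wnt4low replicate 3, and Wnt4low replicate 1 lay far below the other arrays of its fraction, which had an SD of 1.31. The difference of 1.28 (SE 0.65, adjusted p = 0.588) passed neither threshold, and it was 0.53 without Wnt4low replicate 1 and 1.78, past the unadjusted threshold, without Wnt4low replicate 3. Replicate 1 was also the lowest array in the means of the alpha-cell and beta-cell markers. The profiles most like *Gcg* were *Gm33058*, *Hars2* and *Ttr*, the thyroid hormone carrier transthyretin, which is on the alpha-cell list (r = 0.996, 0.992 and 0.992).

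*Sst* encodes the precursor of somatostatin, the delta-cell hormone, and was lower in Wnt4hi. It read 13.30, 13.62 and 13.79 in Wnt4hi and 14.35, 13.97 and 14.07 in Wnt4low. The highest Wnt4hi array lay just below the lowest Wnt4low array. The difference was -0.56 (SE 0.19, adjusted p = 0.354), and it passed without adjustment only. That call was lost without Wnt4low replicate 1 (-0.45), Wnt4hi replicate 2 (-0.42) or Wnt4hi replicate 3 (-0.58). Delta-cell markers were split: of 6, 2 were higher and 4 lower, with means that overlapped (9.79 to 10.15 in Wnt4hi and 9.91 to 10.47 in Wnt4low). *Hhex*, the transcription factor that delta cells need, differed by -1.75 (SE 0.30, adjusted p = 0.0921) without overlap. *Rbp4* differed by 0.53 (SE 0.14, adjusted p = 0.245) and *Sstr3*, a somatostatin receptor, by 1.20 (SE 0.50, adjusted p = 0.486). *Ghsr*, the ghrelin receptor, was not well above background on any Wnt4hi array and was so on 1 Wnt4low array. *Hhex* is also made by endothelial cells, whose markers were lower in Wnt4hi, and the part of that in its difference was not tested. The profiles most like *Sst* were *Fancm*, *Smc1a* and *Prkd2* (r = 0.994, 0.993 and 0.991).

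The hormone genes were next compared with *Ins2* inside each array. Taking each hormone minus *Ins2* within an array, which cancels any factor common to the array, *Ghrl* gained 1.54 on *Ins2* in Wnt4hi, *Ppy* 0.66 and *Iapp* 0.41, and *Sst* differed by -1.12. These 4 of 7 ratios did not overlap between fractions. Each had an exact two-sided permutation p of 0.1, the smallest that 3 against 3 arrays can give, and 0.175 after adjustment over the 7. The share of all features whose ratio to *Ins2* did not overlap was not counted. *Ins2* itself was 0.56 higher in Wnt4hi, and that difference enters every ratio. The ratios of *Ins1* (-0.13), *Pyy* (-0.12) and *Gcg* (0.72) overlapped. The *Iapp* ratio was 0.22 without Wnt4low replicate 1, and the fractions overlapped for it under the processed signal (0.33), median centring (0.24) and cyclic loess (0.18). The *Ppy* ratio was 0.42 and overlapped under cyclic loess. The *Gcg* ratio was 0.0077 without the same array. For *Sst* the ratio was -1.40, -1.09 and -0.86 on the Wnt4hi arrays and 0.28, -0.50 and 0.21 on the Wnt4low arrays, as differences from the Wnt4low mean. For *Ghrl* it was 1.24, 1.64 and 1.74 against -0.44, -0.24 and 0.68. Both sets of values stand apart, in opposite directions.

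The hormone genes were further set against 12 genes that islet endocrine cells of every type are known to express (*Chga*, *Chgb*, *Scg2*, *Scg3*, *Scg5*, *Cpe*, *Pcsk1n*, *Isl1*, *Pax6*, *Neurod1*, *Insm1* and *Rfx6*), a list chosen after the other values were seen. All 12 were higher in Wnt4hi, by 1.18 in the mean, with array means of 13.28, 13.36 and 13.38 in Wnt4hi and 11.61, 12.64 and 12.22 in Wnt4low. Relative to that mean, *Ghrl* was still higher in Wnt4hi by 0.92, or 1.89-fold, and *Sst* was lower by 3.34-fold (-1.74), both without overlap. The direction of the insulin genes turned on this scale: *Ins1* was -0.75 and *Ins2* -0.62, each lower on every Wnt4hi array than on any Wnt4low array. *Pyy* (-0.75) and *Iapp* (-0.21) turned as well but overlapped, and *Ppy* (0.04) and *Gcg* (0.09) were near 0 and overlapped. The *Gcg* value depended on Wnt4low replicate 1, at -0.94 from the Wnt4low mean, against 0.53 and 0.41 on replicates 3 and 4. *Ins2* stood at 0.48, -0.14 and -0.34 on Wnt4low replicates 1, 3 and 4. No array was left out in turn on this scale. The exact permutation p was 0.1 for each of the 4 that did not overlap, and 0.2 after adjustment over the 8. The share of all features without overlap on this scale was not counted, and the means of the 12 genes did not overlap themselves. So whether insulin transcripts counted as higher or lower in Wnt4hi depended on the scale, and *Ghrl* was higher on both. Every gene moved down by the 1.18 that the 12 genes rose. *Sst*, already below 0, could therefore only stay lower, and the median difference over all features, 0.07, would fall below 0 too. Whether the 12 genes measure the amount of endocrine RNA was not tested.

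**Figure D4:**
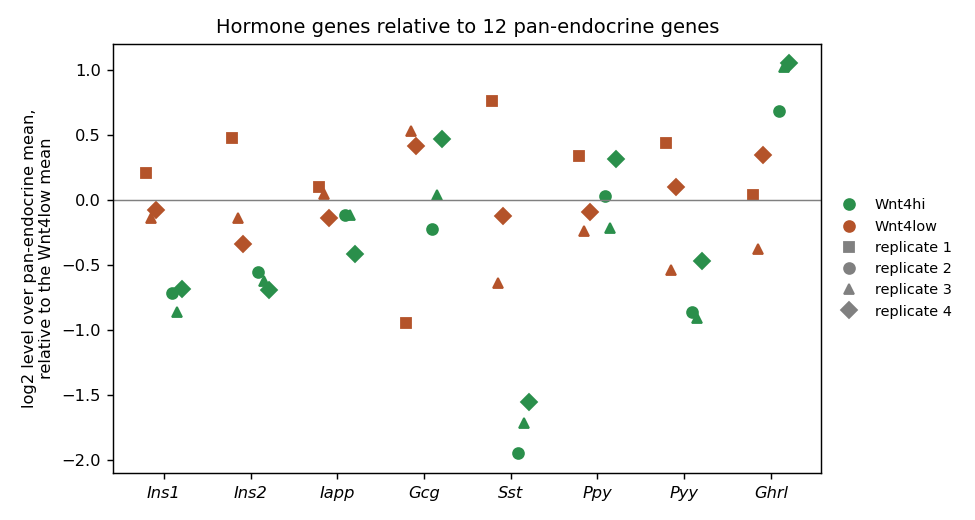
Hormone genes minus the mean of 12 pan-endocrine genes on the same array (vertical axis, log2 units, Wnt4low mean at 0), green for Wnt4hi and brown for Wnt4low arrays, with marker shapes for replicates. Only *Ghrl* is higher in Wnt4hi without overlap, and *Sst*, *Ins1* and *Ins2* are lower without overlap.

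The lists that follow were not set on the pan-endocrine scale. Of 14 transcription factors that act on hormone genes, 12 were higher in Wnt4hi, with a median of 1.42. Among the 14, *Isl1*, *Pax6*, *Neurod1*, *Insm1* and *Rfx6* are also pan-endocrine genes used above. Without adjustment 10 passed toward Wnt4hi and 1, *Hhex*, toward Wnt4low, beside 5.02% and 5.53% of all features. After adjustment 1 passed, beside 0.0351% of all features toward Wnt4hi. It was *Isl1*, a factor shared by islet endocrine cells (2.15-fold, adjusted p = 0.0439). *Nkx2-2* differed by 1.62 (SE 0.45, adjusted p = 0.254) and *Insm1* by 1.02 (adjusted p = 0.478). *Pdx1*, which activates the insulin genes and *Iapp*, differed by 1.84 (SE 0.43, adjusted p = 0.176), beside 0.97 for *Iapp* and 0.56 for *Ins2*. *Mafa*, an activator of insulin transcription that rises as beta cells mature, differed by -0.05 (SE 0.16, adjusted p = 0.950) and was the only one of 12 beta-cell markers not above 0. On the alpha-cell list, *Cltrn* (1.27), *Ttr* (1.41) and *Slc38a5* (1.52) were the brightest, and none of the 10 passed after adjustment, while 6 did without it, beside 0.0351% and 5.02% of all features toward Wnt4hi.

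Of 12 genes that mature or clear the hormones, 10 were higher in Wnt4hi (median 1.05), beside 63.5% of all features. Among the 12, *Cpe*, *Pcsk1n* and *Scg5* are also pan-endocrine genes used above. Without adjustment 8 passed toward Wnt4hi (5.02% of all features) and after it 1 (0.0351%), *Pam*, the enzyme that amidates the ends of pancreatic polypeptide, peptide YY and islet amyloid polypeptide (1.07, SE 0.13, adjusted p = 0.0451). The brightest were *Cpe*, the carboxypeptidase that trims cut precursors (0.94, SE 0.28, adjusted p = 0.298), *Pcsk2*, a prohormone convertase (1.21, SE 0.29, adjusted p = 0.186), and *Pcsk1n*, an inhibitor of convertases (1.18, SE 0.28, adjusted p = 0.190). Of 18 other peptide hormones and neuropeptides, 12 were higher, with a median of 0.24, near the 63.5% of all features above 0, and 4 passed without adjustment toward Wnt4hi, beside 5.02% of all features. *Chga* (1.12), *Chgb* (0.87) and *Scg2* (0.76), granule proteins, were the brightest of these and are also pan-endocrine genes used above.

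Receptors of the hormones were split. Of 18, 12 were above 0 with a median of 0.14, and without adjustment 1 passed toward Wnt4hi (*Glp1r*, the GLP-1 receptor, 0.93) and 4 toward Wnt4low, with 0 after adjustment. The shares above 0 and passing toward Wnt4hi were near those of all features (63.5% and 5.02%), and 5.53% of all features passed toward Wnt4low. These 5 and the members named next to them are given because of their values. The 4 were *Igf1r* (-1.01), *Insr*, the insulin receptor (-0.52), *Ramp2* (-2.08, adjusted p = 0.0713) and *Ramp3* (-1.69, adjusted p = 0.0576). *Ramp2* and *Ramp3* partner the calcitonin receptor at which islet amyloid polypeptide acts, but *Ramp2* is also an endothelial gene and the calcitonin receptor gene, *Calcr*, did not stand well above background on a single array, nor did *Sstr2* and *Npy5r*. Among the brightest receptors, *Sstr5* differed by 0.22 (SE 0.36).

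Across 19 other settings of processing and testing, apart from the pan-endocrine scale, the direction of every hormone gene was kept, with *Sst* between -0.69 and -0.31 and *Ghrl* between 1.85 and 2.37. *Ghrl*, *Ppy* and *Iapp* passed without adjustment in 19 of 19, *Sst* in 15 and *Ins2* in 14. *Pyy* did so in 5 and *Ins1* and *Gcg* in 2 each. *Ghrl* passed after adjustment in 8 of the 19, and none of the other 7 hormone genes did in any.

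**Figure D5:**
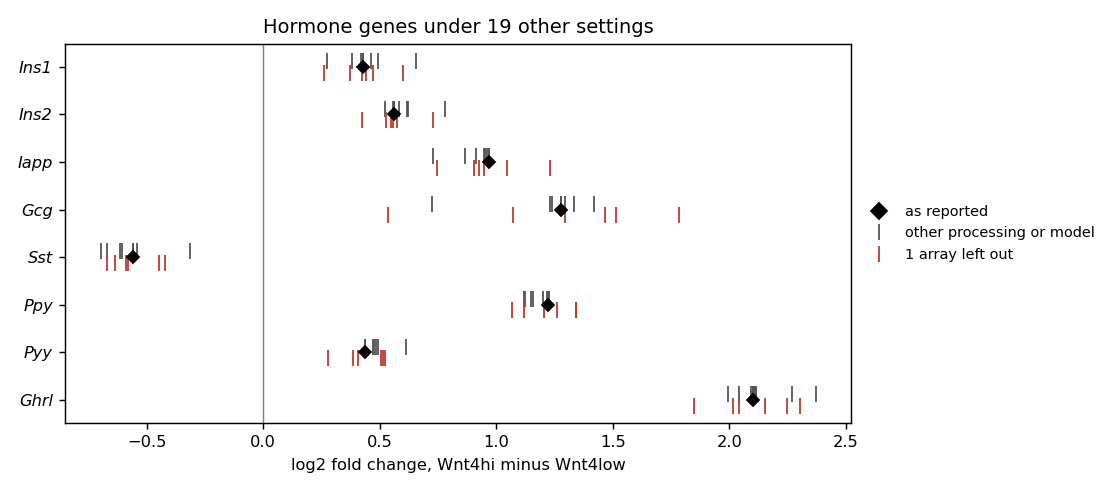
Difference between Wnt4hi and Wnt4low (horizontal axis, log2 units) for each hormone gene as reported (black diamond), under 13 other ways of processing or modelling (grey ticks) and with 1 of the 6 arrays left out (red ticks). All ticks of a gene lie on one side of 0, and *Gcg* spreads most, from 0.53 to 1.78.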

How the data were processed

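One-color arrays of 3 Wnt4hi and 3 Wnt4low samples, grouped by the labels, were analysed. Each sample came from a pool of pups, all arrays lay on 1 slide, and the labels do not say whether same-numbered samples of both fractions came from one pool, so p-values measure the spread between these samples. The authors deposited scanner output with an intensity per spot and its local background, not normalized (Agilent Feature Extraction, version 12.0.1.1 in the file headers and 9.1 in the submitters' processing notes), and their own table of log2 values, normalized. In that table the column labelled Wnt4hi replicate 2 followed its own array with r = 0.271 (0.843 to 0.872 for the others), and it was used as an alternative only.

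Median red intensities were background-corrected with limma 3.58.1 in R 4.3.3 (normexp, offset 50), log2-transformed and quantile-normalized. Control spots, and 50 to 141 outlier spots an array, were left out. Of 27845 RefSeq-type probe names 25126 matched RefSeq (GRCm38.p6), used for names and promoter windows; the array design gives an older build, so no coordinates of probes are printed. The brightest probe on average stood for a gene. Fractions were compared with lmFit and eBayes without covariates, and ratios by exact permutation, two-sided.

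Named were the 8 hormone genes, *Wnt4*, at most the 3 brightest members of each list plus those passing after adjustment, and the 3 genes best correlated with each hormone gene, apart from a few genes that are not reported here. Others are named where a count of 5 or fewer or a single value called for it (*Hhex*, *Mboat4*, *Glp1r*, *Insr*, *Ramp2*, *Ramp3*, *Calcr*, *Sstr2*, *Npy5r*, *Ghsr*, *Tie1* and *Pnlip*), chosen after their values were seen. Members and lists were chosen with earlier results of these data known. On simulated arrays of this comparison (45610 features, 200 changed), 86% of features changed by 1 log2 unit passed without adjustment and 0% after it, and 97% and 48% of those changed by 2. Replicates 3 and 4 share numbers between fractions, and deviations of same-numbered arrays correlated at -0.03 and 0.16.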

Additional observations from a re-analysis of the deposited data

How the results depend on the processing

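Precision was limited by having 3 arrays per fraction. The count of hormone genes passing after adjustment was 1 and became 0 with the processed signal, cyclic loess, the mean of all probes of a gene and the methods' t-test (named for the study as a whole, not for these arrays, whose methods name limma), and 0 to 0 over the 6 arrays left out in turn. The count of hormone probes passing after adjustment (1) became 0 with cyclic loess and 0 to 0 with an array left out. Without adjustment 5 hormone genes passed, and 3 to 7 with an array left out (3 without Wnt4low replicate 1 or Wnt4hi replicate 3). Over all features 200 passed after adjustment, against 505 of 32006 after a filter on dim probes, 406 of 36689 in the authors' table, 0 by the methods' t-test, and 0 to 2 with an array left out. The 4 ratios to *Ins2* that did not overlap became 2 with cyclic loess, and 3 with the processed signal and 3 with median centring. *Iapp* was lost in each, and *Ppy* too with cyclic loess. In a fit with the replicate block as a fixed term, 0 hormone genes and 0 of all features passed after adjustment. Without adjustment 3 hormone genes did (*Ghrl*, *Ppy* and *Iapp*), while *Sst* and *Ins2* were lost. With the block as a random term the unadjusted count was 6, and only 2 numbers are shared. Relative to the pan-endocrine genes, chosen after seeing the data, *Ins1* (-0.75), *Ins2* (-0.62), *Pyy* (-0.75) and *Iapp* (-0.21) reversed. Apart from the dim filter and left-out arrays, which change how many features or samples are tested, the cause of these changes was not tested.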
